A study of Homo sapiens with 9 samples.

Results

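Targets of the transcription factor NF-kappaB were described in HepG2 cells, a line from a human liver tumour that keeps hepatocyte traits, after exposure to recombinant SPARC, a secreted matricellular glycoprotein. The members were 10 genes chosen by symbol. They were the chemokines CCL20, CXCL8, CXCL1, CXCL2, CXCL3 and CCL2, the adhesion molecule ICAM1, the pathway inhibitors NFKBIA and TNFAIP3, and the apoptosis inhibitor BIRC3. Of these, 9 had a transcript cluster among the 17687 genes of the array, and each had 1 value per array. BIRC3 was not analysed here for expression. The 9 arrays comprised 3 of untreated HepG2 cells, 3 of cells given SPARC at 200 ng/ml and 3 of cells given 800 ng/ml, all collected after 24 h. All groups are the same tumour-derived line, so the measurements are of 1 genetic background. In the labels, the extraction text speaks of untreated cells and of 800 ng/ml, and the sample titles add 200 ng/ml. Separate cultures are not stated for the replicates, so the p-values cover the spread among these samples alone, which may be technical.

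NF-kappaB dimers of Rel proteins are held in the cytoplasm by inhibitors of the IkappaB family until the IKK complex marks these inhibitors for destruction. The freed dimers enter the nucleus and bind kappaB sites in promoters, among them those of chemokines, of ICAM1 and of the pathway's own inhibitors, which close a negative feedback loop. In hepatocytes the pathway is known for its response to TNF and interleukin-1 and for the recruitment of leukocytes to the inflamed liver.

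The promoters are shown because kappaB sites are what these genes are known to share. RefSeq sequences of build GRCh38.p14 were at hand for 9 of the 10 members, CCL2 being the exception, from 250 bases before to 50 after the transcription start. They were searched on both strands for the kappaB decamer consensus and for GGAATTTCC, a fixed 9-letter sequence called its 9-letter form below. The AP-1 site TGANTCA and the TATA box TATAAA were searched for as well. The stretches below end at the base before the start, read 5′ to 3′ on the gene's strand, and carry kappaB matches in capitals. The first is CCL20 at chr2:227813712-227813841 (plus strand), and ICAM1 at chr19:10270870-10271119 (plus) is given over its longer upstream part because its match lies farther out. The CXC chemokines are CXCL8 at chr4:73740439-73740568 (plus), CXCL1 at chr4:73869263-73869392 (plus), CXCL2 at chr4:74099196-74099325 (minus) and CXCL3 at chr4:74038690-74038819 (minus). The inhibitors are NFKBIA at chr14:35404750-35404879 (minus) and TNFAIP3 at chr6:137867129-137867258 (plus).
CCL20: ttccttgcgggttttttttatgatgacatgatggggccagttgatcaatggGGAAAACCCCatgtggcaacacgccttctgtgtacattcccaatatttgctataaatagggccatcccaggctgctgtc
ICAM1: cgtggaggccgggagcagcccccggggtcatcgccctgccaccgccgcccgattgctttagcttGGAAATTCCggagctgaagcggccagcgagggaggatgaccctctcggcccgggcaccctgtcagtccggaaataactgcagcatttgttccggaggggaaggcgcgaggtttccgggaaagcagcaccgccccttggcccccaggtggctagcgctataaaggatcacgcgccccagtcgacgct
CXCL8: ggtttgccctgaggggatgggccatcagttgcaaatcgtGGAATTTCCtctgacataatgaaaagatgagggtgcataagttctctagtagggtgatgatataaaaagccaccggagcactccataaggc
CXCL1: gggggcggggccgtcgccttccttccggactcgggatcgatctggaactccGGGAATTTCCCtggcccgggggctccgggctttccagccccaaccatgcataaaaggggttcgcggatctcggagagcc
CXCL2: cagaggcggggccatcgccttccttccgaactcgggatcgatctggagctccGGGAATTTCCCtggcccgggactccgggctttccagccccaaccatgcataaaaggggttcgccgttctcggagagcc
CXCL3: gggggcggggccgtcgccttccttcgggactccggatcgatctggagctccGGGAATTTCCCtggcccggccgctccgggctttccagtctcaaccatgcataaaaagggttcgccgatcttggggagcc
NFKBIA: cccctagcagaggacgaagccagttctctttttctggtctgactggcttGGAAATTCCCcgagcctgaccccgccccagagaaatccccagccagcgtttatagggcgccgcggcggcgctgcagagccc
TNFAIP3: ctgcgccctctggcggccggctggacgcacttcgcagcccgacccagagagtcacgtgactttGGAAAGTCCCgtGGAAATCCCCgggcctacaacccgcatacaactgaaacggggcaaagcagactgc

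The kappaB consensus matched 7 of the 9 promoters at hand, against 11.3% of all 35116 promoters of the same length. The 9-letter form matched 6 of 9, against 0.461% of all promoters. In CXCL1, CXCL2, CXCL3 and NFKBIA both matches overlapped in 1 site, whose last base lay at −69, −68, −69 and −72 from the start. The site of CCL20 ended at −70, that of CXCL8 at −83 and that of ICAM1 at −178. TNFAIP3 had 2 neighbouring matches, ending at −58 and −46, and BIRC3 had 2, ending at −190 and −126. Either form was present in 9 of 9, against 11.5% of all promoters, and CXCL8 and ICAM1 matched the 9-letter form alone. The members were listed as NF-kappaB targets, so these contrasts follow from the choice of genes and motifs and are no test. CXCL8 was the member with an AP-1 match, at −137 to −131, where 7.71% of promoters have one. TATAAA matched on either strand in 4 of 9 members, CCL20, ICAM1, CXCL8 and NFKBIA, against 11.5%. The match of NFKBIA was on the strand opposite to the gene, where it reads TTTATA in the stretch above. In the 60 bases flanking the site, compared without gaps, CXCL1 was identical to CXCL3 at 53, to CXCL2 at 47 and to CXCL8 at 17. The transcripts of CXCL1, CXCL2 and CXCL3 are also close copies, so a probe may bind more than 1 of them and their single values are uncertain.

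**Figure D1:**
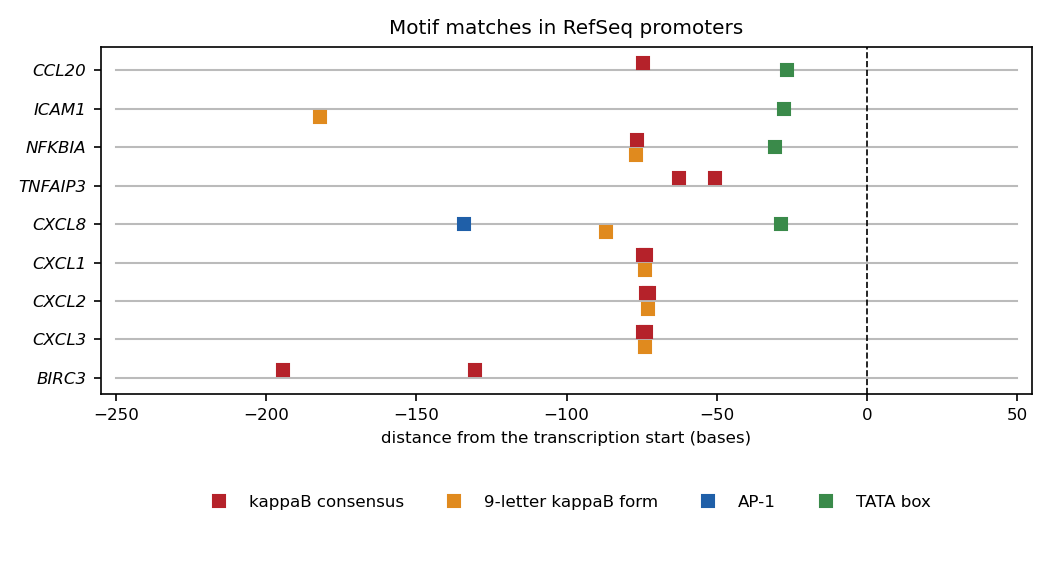
Positions of motif matches in the promoters of 9 members, in bases from the transcription start (dashed line), with each square at the middle of a match on either strand and BIRC3 included although its expression was not analysed. Matches of the kappaB consensus or its 9-letter form end between −190 and −46 in all 9 promoters shown.

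Before the members are compared, 3 arrays need to be named. Untreated replicate 2 correlated with the other arrays at 0.891 to 0.920, whereas the other 8 correlated with each other at 0.979 to 0.991. In it dim genes were higher and bright genes lower than in untreated replicates 1 and 3. The neural markers were listed as genes known from earlier results of these data to be high in 800 ng/ml replicates 2 and 3. The mean of the 8 measured was 6.42 and 6.40 in those arrays, against 4.26 to 4.71 in the other 7 arrays, a contrast set by that choice. The part of these markers in the members' values was not tested. The 8 measured hepatocyte markers averaged 10.18 to 10.46 in untreated arrays, 10.32 to 10.45 at 200 ng/ml and 10.45 to 10.50 at 800 ng/ml. Blood and Kupffer cell markers, 10 measured, averaged 6.54 in untreated replicate 2 and 5.54 to 5.80 in the other 8 arrays. All signals below are log2 values, and they compare 1 gene between arrays, not genes with each other. Each array is a bulk sample, in which fewer cells of a type and less RNA per cell cannot be told apart.

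The members lay on both sides of that shift. Of the 9, untreated replicate 2 was the lowest untreated array for 6, the highest for CXCL8 and CCL2, and in between for CXCL1. CCL20 deviated from the mean of untreated replicates 1 and 3 by −0.70 on the log2 scale, beside a median of −0.61 for the 885 genes of like signal. ICAM1 had −0.68 beside the same −0.61, and CXCL8 had 0.70 beside 0.65. These 3 members thus deviated about as much as the median gene of their signal bin. NFKBIA with −1.11 lay at percentile 2.49 of its bin and TNFAIP3 with −0.90 at percentile 14.6. Their signals of 9.19 and 9.30 were below the median signal of that brightest bin, 9.80. In the next bin, with a median signal of 8.75, the median deviation was −0.87 and the 10th percentile −1.21, so both percentiles depend on where the bins are cut. CCL2 with 1.78 lay at percentile 95.8. CXCL1 had 0.33 (bin median 0.64), whereas CXCL2 and CXCL3 had −0.48 and −0.24 where the median of their bin was 0.48. Differences from untreated cells are therefore given with all 9 arrays and without untreated replicate 2, which leaves 2 untreated arrays.

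**Figure D2:**
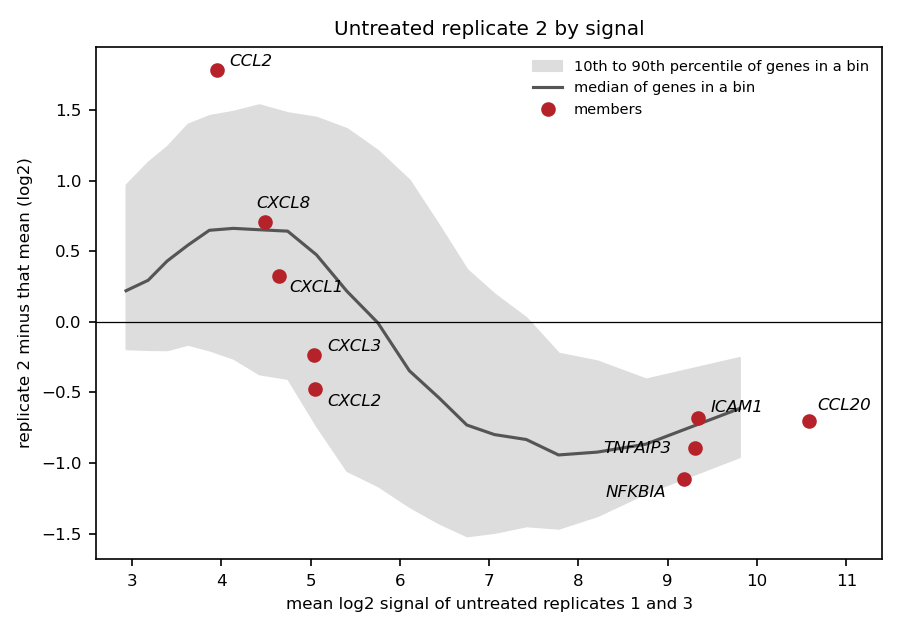
Deviation of untreated replicate 2 from the mean of untreated replicates 1 and 3 (log2, vertical) against that mean (log2 signal, horizontal), with the line and band giving the median and the outer deciles of 20 equal bins of genes and red points the 9 measured members. CCL20, ICAM1 and CXCL8 lie near the line or its end, NFKBIA at the lower edge of the band and CCL2 above it.

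CCL20 attracts lymphocytes and immature dendritic cells through its receptor CCR6. Its signals were 10.56, 9.89 and 10.61 in untreated replicates 1, 2 and 3, then 9.96, 10.04 and 9.97 at 200 ng/ml and 10.33, 10.23 and 10.25 at 800 ng/ml. Both SPARC groups were tight, with ranges that did not overlap each other, and untreated replicates 1 and 3 lay above every SPARC array. Untreated replicate 2 lay below all of them. At 200 ng/ml the log2 difference from untreated cells was −0.36 ± 0.21 (SE, n = 3 each; limma, adjusted p = 0.966) with all arrays. Leaving out untreated replicate 2 gave −0.60 ± 0.11, a ratio of 0.661, with an interval of −0.84 to −0.36 (limma, adjusted p = 0.309). The test was not passed in either fit. Leaving out untreated replicate 1 or 3 instead gave −0.26 and −0.24. At 800 ng/ml the same 2 fits gave −0.08 ± 0.21 and −0.32 ± 0.11 (limma, adjusted p = 0.850 and 0.902). Between the doses, where no untreated array enters the difference, 800 ng/ml was 0.28 above 200 ng/ml. The interval was −0.19 to 0.75 with all arrays (limma, adjusted p = 0.999). It was 0.07 to 0.49 when untreated replicate 2 was left out of the shared spread (limma, adjusted p = 0.243). The group means without that array were thus 10.59 ± 0.03 (SD, n = 2) in untreated cells, 9.99 ± 0.05 (n = 3) at 200 ng/ml and 10.27 ± 0.05 (n = 3) at 800 ng/ml, lowest at the lower dose.

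ICAM1, the endothelial and epithelial ligand of leukocyte beta-2 integrins, was the member with the most similar pattern. It had 9.27, 8.65 and 9.41 in untreated replicates 1, 2 and 3, then 9.02, 8.75 and 8.74 at 200 ng/ml and 9.06, 9.18 and 9.03 at 800 ng/ml. Again untreated replicates 1 and 3 lay above every SPARC array, replicate 2 lay below them, and the doses did not overlap, although 200 ng/ml replicate 1 at 9.02 came close to the lowest 800 ng/ml array at 9.03. With all arrays the log2 difference at 200 ng/ml was −0.28 ± 0.22 (SE). Without untreated replicate 2 it was −0.50 ± 0.13, with an interval of −0.80 to −0.21 (limma, adjusted p = 0.966 and 0.310). Without untreated replicate 1 or 3 it was −0.20 and −0.13. At 800 ng/ml these fits gave −0.02 ± 0.22 and −0.25 ± 0.13 (limma, adjusted p = 0.974 and 0.971). Over the 8 arrays other than untreated replicate 2, the centred values of ICAM1 differed from those of CCL20 by a root mean square of 0.12, which ranked ICAM1 at 126 among all other genes by likeness. The median gene differed by 0.29, and TNFAIP3, the next member, by 0.27.

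Array weights, which let the fit rate the arrays, called CCL20 and ICAM1 lower at 200 ng/ml, with −0.58 and −0.49 (limma, adjusted p = 0.0072 and 0.0116). That fit called 11.1% of all genes at 200 ng/ml, 4.14% at 800 ng/ml and 0.0339% between the doses. It gave untreated replicate 1 a weight of 10.7 and replicate 2 one of 0.0399, and so rested on 1 untreated array. Neither CCL20 nor ICAM1 was called with weights and untreated replicate 2 left out, a fit whose share of all genes is not given here.

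The 5 genes whose profile over those 8 arrays was closest to that of CCL20 were SYS1, SIMC1, COPS4, SVBP and SHLD1, with root-mean-square differences of 0.051, 0.053, 0.061, 0.070 and 0.073. SYS1, a Golgi trafficking protein, had 8.56 and 8.54 in untreated replicates 1 and 3, 7.98, 8.09 and 8.05 at 200 ng/ml, and 8.28, 8.20 and 8.18 at 800 ng/ml. COPS4 is a subunit of the COP9 signalosome and SHLD1 one of the shieldin complex of DNA repair. Untreated replicate 2 had 7.11 for SYS1, below all other arrays as for CCL20, but 6.60 for SHLD1, above the others. The scale for these distances is the size of the CCL20 profile itself, 0.23.

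**Figure D3:**
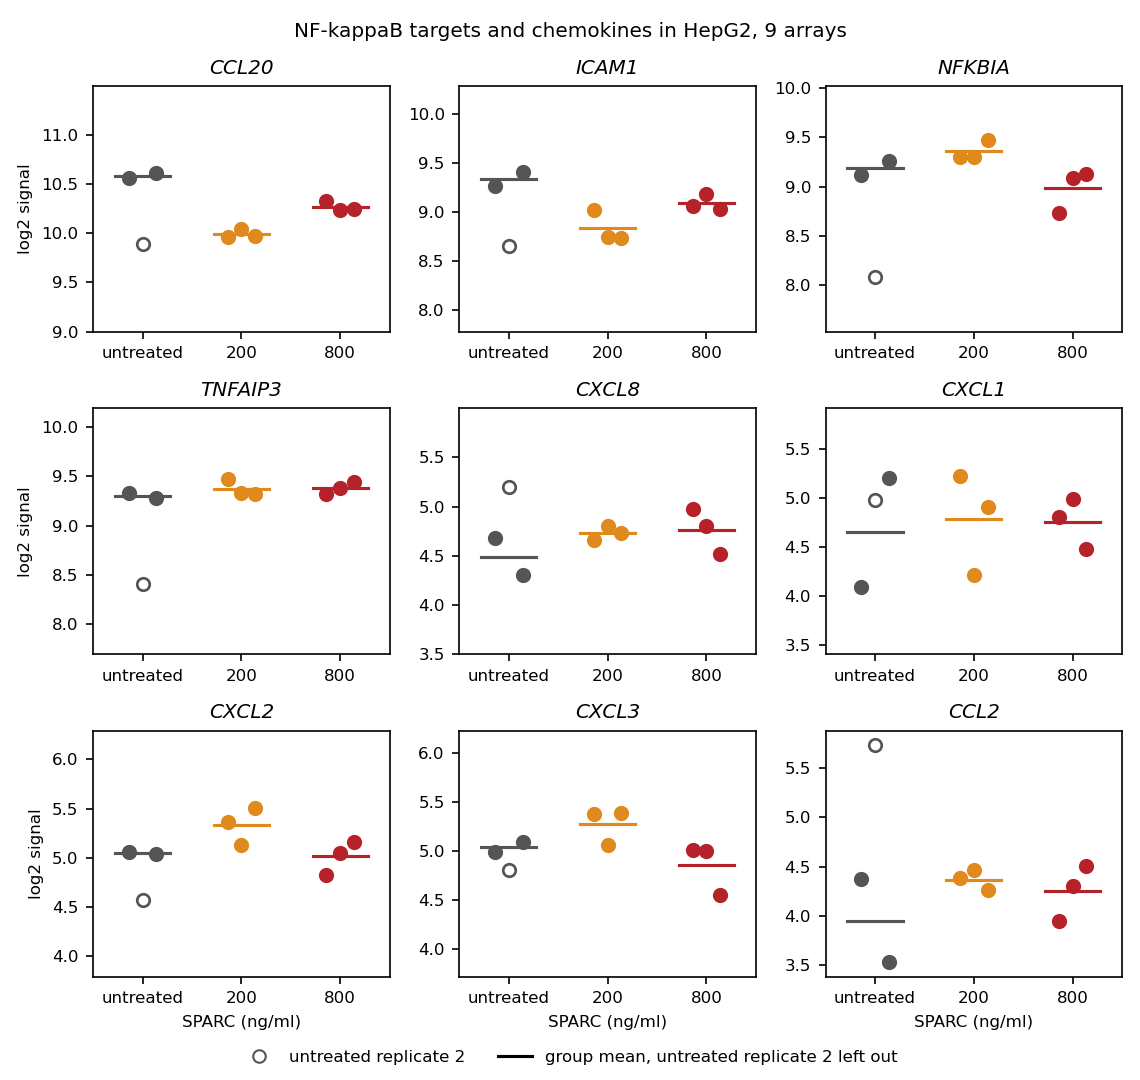
Log2 signal (vertical, each panel spanning the same range) of the 9 measured members in untreated cells and at 200 and 800 ng/ml SPARC, 3 arrays each, with bars at group means without untreated replicate 2 (open circle). CCL20 and ICAM1 are lowest at 200 ng/ml among the filled points, and the open circle is the lowest untreated array for 6 members.

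The ELR-type CXC chemokines attract neutrophils through CXCR1 and CXCR2. CXCL2 had 5.05, 4.57 and 5.04 in untreated replicates 1, 2 and 3, 5.37, 5.13 and 5.51 at 200 ng/ml, and 4.82, 5.05 and 5.16 at 800 ng/ml. All 200 ng/ml arrays lay above all untreated arrays, and the 800 ng/ml arrays overlapped untreated replicates 1 and 3 and lay above replicate 2. The log2 difference at 200 ng/ml was 0.45 ± 0.21 (SE, n = 3 each) with all arrays and 0.29 ± 0.15 without untreated replicate 2 (limma, adjusted p = 0.966 and 0.494). The sign at 800 ng/ml differed between the fits, with 0.12 ± 0.21 and −0.034 ± 0.150. CXCL3 had 4.99, 4.81 and 5.09 in untreated cells, 5.38, 5.06 and 5.39 at 200 ng/ml, and 5.007, 5.002 and 4.56 at 800 ng/ml. Here the doses did not overlap, with 800 ng/ml below 200 ng/ml by a log2 difference of −0.42 ± 0.20 with all arrays and ± 0.15 without untreated replicate 2 (limma, adjusted p = 0.999 and 0.264). Against untreated cells CXCL3 had 0.31 ± 0.20 and 0.23 ± 0.17 at 200 ng/ml in these fits, and −0.11 ± 0.20 and −0.19 ± 0.17 at 800 ng/ml. CXCL2 had −0.32 between the doses, with 800 ng/ml replicate 3 inside the 200 ng/ml range.

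CXCL1 did not share that order. Its signals were 4.09, 4.98 and 5.20 in untreated replicates 1, 2 and 3, 5.22, 4.21 and 4.91 at 200 ng/ml, and 4.80, 4.99 and 4.48 at 800 ng/ml. The arrays of a group spread over up to 1.11, and the differences from untreated cells were 0.02 ± 0.33 at 200 ng/ml and −0.0002 ± 0.326 at 800 ng/ml (limma, adjusted p = 0.994 and 0.9998) with all arrays. Without untreated replicate 2 they were 0.13 ± 0.36 and 0.11 ± 0.36. CXCL8, or interleukin-8, had 4.68, 5.19 and 4.30 in untreated cells, 4.66, 4.80 and 4.73 at 200 ng/ml, and 4.98, 4.81 and 4.51 at 800 ng/ml. The SPARC arrays lay inside the untreated range for this gene. With all arrays its differences were 0.0066 ± 0.24 at 200 ng/ml and 0.041 ± 0.24 at 800 ng/ml. They were larger without untreated replicate 2, at 0.24 ± 0.17 and 0.28 ± 0.17, with intervals of −0.13 to 0.62 and −0.10 to 0.65.

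CCL2 attracts monocytes through CCR2. It had 4.38, 5.73 and 3.53 in untreated replicates 1, 2 and 3, 4.39, 4.46 and 4.26 at 200 ng/ml, and 3.95, 4.30 and 4.50 at 800 ng/ml. The untreated arrays alone spanned 2.21, more than any SPARC group, so both doses overlapped them. The log2 differences of −0.18 ± 0.43 and −0.30 ± 0.43 at 200 and 800 ng/ml changed sign without untreated replicate 2, to 0.42 ± 0.24 and 0.30 ± 0.24 (limma, adjusted p = 0.541 and 0.978 without it). Macrophages and fibroblasts are also known to make CCL2. Fibroblast and stellate markers, 6 measured, averaged 5.98 in untreated replicate 2 and 5.21 to 5.49 in the other 8 arrays. Blood and Kupffer cell markers, at 6.54, and endothelial markers, at 5.02, were also highest in that array. All genes in the signal bin of CCL2 deviated there by a median of 0.65. The part of any of these in the CCL2 values was not tested.

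NFKBIA encodes IkappaB-alpha, the inhibitor that NF-kappaB induces against itself. Its signals were 9.12, 8.08 and 9.26 in untreated replicates 1, 2 and 3, 9.30, 9.30 and 9.47 at 200 ng/ml, and 8.73, 9.08 and 9.13 at 800 ng/ml. All 200 ng/ml arrays lay above all untreated and all 800 ng/ml arrays. The difference at 200 ng/ml was 0.54 ± 0.29 (SE) with all arrays and 0.17 ± 0.15 without untreated replicate 2 (limma, adjusted p = 0.966 and 0.681). Its sign at 800 ng/ml differed between the fits, with 0.16 ± 0.29 and −0.21 ± 0.15. Between the doses the log2 difference was −0.38, with an interval of −1.01 to 0.25 with all arrays (limma, adjusted p = 0.999). The interval was −0.67 to −0.08 without untreated replicate 2 (limma, adjusted p = 0.252). With 800 ng/ml replicates 2 and 3 left out as well, replicate 1 alone gave −0.63.

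TNFAIP3, a ubiquitin-editing enzyme that shuts off signalling upstream of IKK, varied little outside 1 array. It had 9.33, 8.41 and 9.28 in untreated replicates 1, 2 and 3, 9.47, 9.33 and 9.32 at 200 ng/ml, and 9.32, 9.38 and 9.44 at 800 ng/ml. Apart from untreated replicate 2, its 8 arrays lay between 9.28 and 9.47. Without that array the differences were 0.07 ± 0.11 at 200 ng/ml and 0.08 ± 0.11 at 800 ng/ml, with intervals of −0.18 to 0.32 and −0.17 to 0.33. With all arrays they were 0.37 ± 0.24 and 0.38 ± 0.24 (limma, adjusted p = 0.966 and 0.659).

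**Figure D4:**
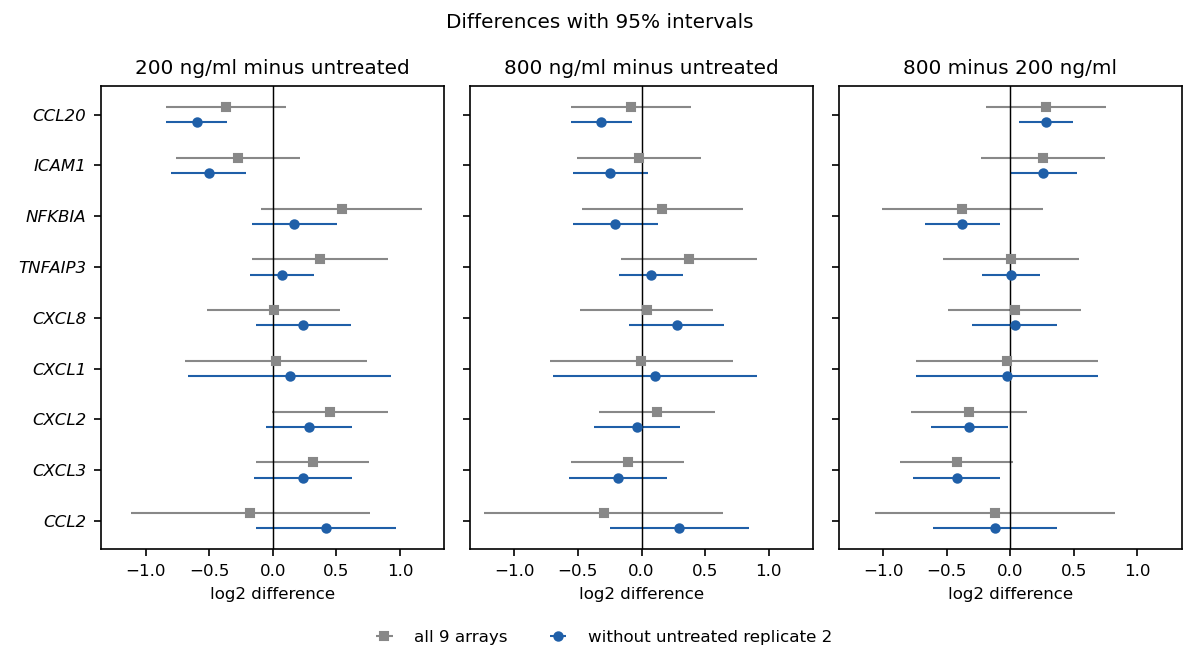
Log2 differences of the 9 measured members (points) with 95% intervals (bars) in the 3 comparisons, from the fits of all 9 arrays (grey squares) and without untreated replicate 2 (blue circles). For CCL20 the blue interval excludes 0 in all 3 comparisons, and no member passed the adjusted test in either fit.

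Counted together, 0 of 9 members passed at an adjusted p under 0.05 in any comparison of either limma fit, where 0% of all genes did. At an unadjusted p under 0.05 with all 9 arrays, 0 of 9 members were found in each comparison, against 1.78%, 4.17% and 2.41% of all genes for 200 ng/ml, 800 ng/ml and the doses against each other. Without untreated replicate 2, 2 members were lower at 200 ng/ml by that measure, CCL20 and ICAM1, against 6.03% of genes, and 0 were higher, against 5.29%. At 800 ng/ml CCL20 was lower, against 2.83% of genes, and 0 were higher, against 2.53%. Between the doses CCL20 was higher, against 7.68%, and CXCL2, CXCL3 and NFKBIA lower, against 7.58%. Groups without overlap were counted next. With all arrays, CXCL2 and NFKBIA were higher without overlap at 200 ng/ml than in untreated cells, against 3.92% of genes, and 0 were lower, against 3.06%, or 6.98% either way. Against untreated cells 800 ng/ml had 0 of 9 without overlap, where 6.08% of genes were higher and 5.14% lower, 11.2% in all. Leaving out untreated replicate 2 gave 4 of 9 at 200 ng/ml, 2 higher against 13.8% and 2 lower against 17.8%, or 31.5% either way. At 800 ng/ml it gave 0 higher against 10.5% and 2 lower against 11.8%, or 22.3% either way. Those shares are near that of all genes. Between the doses CCL20 and ICAM1 were higher, against 12.1%, and CXCL3 and NFKBIA lower, against 9.72%, or 21.9% either way. Any pair of comparisons shares the untreated, the 200 ng/ml or the 800 ng/ml arrays, so their counts are not independent.

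The median log2 difference of the members with all arrays was 0.02 at 200 ng/ml, −0.0002 at 800 ng/ml and −0.02 between the doses, beside 0.03, 0.04 and 0.01 for all genes. Without untreated replicate 2 it was 0.17, −0.03 and −0.02, beside −0.016, −0.006 and 0.01. At 200 ng/ml the members then ranged from −0.60 for CCL20 to 0.42 for CCL2, with 7 of 9 above 0. At 200 ng/ml CCL20 and ICAM1 lay below untreated replicates 1 and 3 while CXCL2 and NFKBIA lay above them. Of all genes, 31.5% were without overlap in that comparison, 17.8% lower and 13.8% higher, and no member passed the adjusted test.

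The rest of the pathway was read from lists of its parts, and 0 genes of any list were called in either fit. The 9 measured Rel subunits and IkappaB proteins had medians of 0.06 at 200 ng/ml and −0.07 at 800 ng/ml with all arrays, and of 0.04 and 0.002 without untreated replicate 2. RELA, the main transactivating subunit, had 8.44, 7.55 and 8.29 in untreated replicates 1, 2 and 3, 8.67, 8.56 and 8.70 at 200 ng/ml, and 8.16, 8.39 and 8.37 at 800 ng/ml. Its 200 ng/ml arrays lay above all others, as those of NFKBIA did. The difference of RELA at 200 ng/ml was 0.55 ± 0.24 with all arrays and 0.28 ± 0.12 without untreated replicate 2 (limma, adjusted p = 0.966 and 0.441). Between the doses it was −0.34, with SEs of 0.24 and 0.11 (limma, adjusted p = 0.999 and 0.238). NFKBIZ, an atypical nuclear IkappaB, took opposite signs in the fits, with −0.12 ± 0.24 and 0.14 ± 0.13 at 200 ng/ml and −0.20 ± 0.24 and 0.06 ± 0.13 at 800 ng/ml. NFKBIB had 0.24 ± 0.19 and 0.15 ± 0.15 at 200 ng/ml, and 0.35 ± 0.19 and 0.265 ± 0.146 at 800 ng/ml.

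The 19 measured IKK subunits and adaptors split differently in the fits. At 200 ng/ml 10 were higher and 9 lower with all arrays, and 4 higher and 15 lower without untreated replicate 2. The medians were 0.003 and −0.14. At 800 ng/ml 14 were higher and 5 lower with all arrays, and 7 higher and 12 lower without untreated replicate 2, with medians of 0.19 and −0.02. At an unadjusted p under 0.05, 0 of 19 differed at 200 ng/ml with all arrays, where 1.78% of all genes did. Without untreated replicate 2, 3 of 19 were lower there, where 6.03% of all genes were, and 0 were higher, where 5.29% were. MYD88, the adaptor of Toll-like and interleukin-1 receptors, had 8.29, 8.25 and 8.39 at 200 ng/ml, against 8.57, 7.72 and 8.64 in untreated replicates 1, 2 and 3. Its difference was 0.003 ± 0.243 with all arrays and −0.29 ± 0.11 without untreated replicate 2, so the lower value rests on leaving out that array. The ubiquitin ligase TRAF6 had −0.018 ± 0.336 and −0.47 ± 0.18 at 200 ng/ml in the same 2 fits (limma, adjusted p = 0.996 and 0.384). TRAF6 had, at 800 ng/ml, −0.29 ± 0.34 and −0.75 ± 0.18 (limma, adjusted p = 0.695 and 0.861). MAP3K14, the kinase of the noncanonical pathway, had −0.30 ± 0.22 and −0.49 ± 0.16 at the lower dose, and −0.20 ± 0.22 and −0.38 ± 0.16 at the higher. IKBKG, the regulatory subunit of IKK, had 6.34, 5.87 and 6.38 in untreated replicates 1, 2 and 3. It had 6.07, 6.25 and 6.44 at 200 ng/ml and 6.96, 6.55 and 6.67 at 800 ng/ml, the latter above all other arrays. Against untreated cells IKBKG had 0.06 ± 0.21 and −0.10 ± 0.16 at 200 ng/ml in the 2 fits. At 800 ng/ml it had 0.53 ± 0.21 and 0.37 ± 0.16 (limma, adjusted p = 0.659 and 0.918). Between the doses the difference was 0.47, with SEs of 0.21 and 0.14 (limma, adjusted p = 0.999 and 0.218). TAB3, an adaptor of the kinase that activates IKK, had 0.17 ± 0.19 and −0.005 ± 0.105 at 200 ng/ml, and 0.26 ± 0.19 and 0.09 ± 0.11 at 800 ng/ml.

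Among 15 measured receptors upstream of the pathway the medians were −0.06 and 0.12 at 200 and 800 ng/ml with all arrays, and −0.03 and −0.014 without untreated replicate 2. TNFRSF1A, the main TNF receptor, had 0.10 ± 0.18 and −0.03 ± 0.11 at 200 ng/ml in these fits, and 0.17 ± 0.18 and 0.04 ± 0.11 at 800 ng/ml. TNFRSF12A, the receptor of TWEAK, had −0.06 ± 0.17 and −0.03 ± 0.11 at the lower dose, and −0.12 ± 0.17 and −0.10 ± 0.11 at the higher. IL1RAP, the accessory chain of the interleukin-1 receptor, had 6.36, 5.90 and 6.20 at 800 ng/ml, against 5.68, 4.92 and 5.68 in untreated replicates 1, 2 and 3, without overlap. Its difference there was 0.72 ± 0.24 with all arrays and 0.47 ± 0.14 without untreated replicate 2 (limma, adjusted p = 0.659 and 0.894). IL18R1 had −0.40 ± 0.21 and −0.22 ± 0.15 at 200 ng/ml, and −0.37 ± 0.21 and −0.19 ± 0.15 at 800 ng/ml.

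The 26 other measured NF-kappaB targets had medians of −0.04 and 0.006 at 200 and 800 ng/ml with all arrays, and of 0.01 and −0.007 without untreated replicate 2. IER3, a stress-induced survival gene, had 0.18 ± 0.20 and 0.002 ± 0.115 at 200 ng/ml in these fits, and 0.10 ± 0.20 and −0.08 ± 0.12 at 800 ng/ml. Complement C3 had 0.24 ± 0.20 and 0.06 ± 0.11 at the lower dose, and 0.16 ± 0.20 and −0.02 ± 0.11 at the higher. CSF3, the granulocyte growth factor, had 3.84, 4.50 and 4.07 in untreated replicates 1, 2 and 3, 4.64, 4.38 and 4.75 at 200 ng/ml, and 4.26, 4.51 and 4.50 at 800 ng/ml. Both doses lay above untreated replicates 1 and 3 and overlapped replicate 2. CSF3 differed by 0.46 ± 0.21 with all arrays and 0.64 ± 0.15 without untreated replicate 2 at 200 ng/ml (limma, adjusted p = 0.966 and 0.309). The CSF3 difference at 800 ng/ml was 0.29 ± 0.21 and 0.47 ± 0.15 (limma, adjusted p = 0.659 and 0.895). LTB, lymphotoxin-beta, had −0.49 between the doses, with SEs of 0.31 and 0.15 (limma, adjusted p = 0.999 and 0.223).

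The split of the 30 other measured chemokines also differed between the fits. With all arrays 14 were higher and 16 lower at 200 ng/ml, with a median of −0.07, and 8 higher and 22 lower at 800 ng/ml, with a median of −0.22. Without untreated replicate 2 it was 21 higher and 9 lower at 200 ng/ml, with a median of 0.10, and 14 higher and 16 lower at 800 ng/ml, with a median of −0.008. CXCL16, a membrane-bound chemokine, had 0.30 ± 0.22 and 0.06 ± 0.12 at 200 ng/ml in these fits, and 0.34 ± 0.22 and 0.10 ± 0.12 at 800 ng/ml. CCL16, a chemokine of the liver, took opposite signs, with 0.05 ± 0.21 and −0.13 ± 0.13 at the lower dose and 0.17 ± 0.21 and −0.006 ± 0.134 at the higher. XCL1 had 4.27, 4.55 and 4.48 in untreated replicates 1, 2 and 3, 4.63, 5.02 and 5.03 at 200 ng/ml, and 5.25, 5.005 and 4.93 at 800 ng/ml, so that both doses lay above all untreated arrays. XCL1 differed by 0.46 ± 0.20 with all arrays and 0.52 ± 0.16 without untreated replicate 2 at 200 ng/ml (limma, adjusted p = 0.966 and 0.333). The XCL1 difference at 800 ng/ml was 0.63 ± 0.20 and 0.69 ± 0.16 (limma, adjusted p = 0.659 and 0.861). CCL1 had −0.54 between the doses, with SEs of 0.21 and 0.15 (limma, adjusted p = 0.999 and 0.202).

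Receptors of the members were also counted, and here the 2 fits gave different splits, with 0 of 9 called in either. With all arrays 9 of 9 were lower at both doses, with medians of −0.28 and −0.46. Without it 5 were higher and 4 lower at 200 ng/ml, with a median of 0.07, and 2 higher and 7 lower at 800 ng/ml, with a median of −0.18. In untreated replicate 2 dim genes at large tended to be higher, with bin medians of up to 0.66, and endothelial markers averaged 5.02, against 4.25 to 4.51 in the other 8 arrays. The part of either in these counts was not tested. CCR6, the receptor of CCL20, had 5.70, 5.01 and 5.38 in untreated replicates 1, 2 and 3, 5.16, 5.08 and 4.95 at 200 ng/ml, and 5.28, 5.42 and 5.08 at 800 ng/ml. Untreated replicate 2 lay below most SPARC arrays and the other untreated arrays above those at 200 ng/ml. CCR6 differed by −0.30 ± 0.21 with all arrays and −0.47 ± 0.15 without untreated replicate 2 at 200 ng/ml (limma, adjusted p = 0.966 and 0.333). The CCR6 difference at 800 ng/ml was −0.10 ± 0.21 and −0.28 ± 0.15 (limma, adjusted p = 0.816 and 0.971). ACKR2, a scavenging receptor of CC chemokines, had 5.27, 7.46 and 5.47 in untreated replicates 1, 2 and 3. It had 5.70, 5.68 and 5.99 at 200 ng/ml and 5.20, 5.19 and 5.35 at 800 ng/ml. Its differences from untreated cells were −0.27 ± 0.45 and −0.82 ± 0.45 at 200 and 800 ng/ml with all arrays. Without untreated replicate 2 they were 0.42 ± 0.14 and −0.12 ± 0.14. Between the doses the difference was −0.54, with SEs of 0.45 with all arrays and 0.12 without untreated replicate 2 (limma, adjusted p = 0.999 and 0.185).

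**Figure D5:**
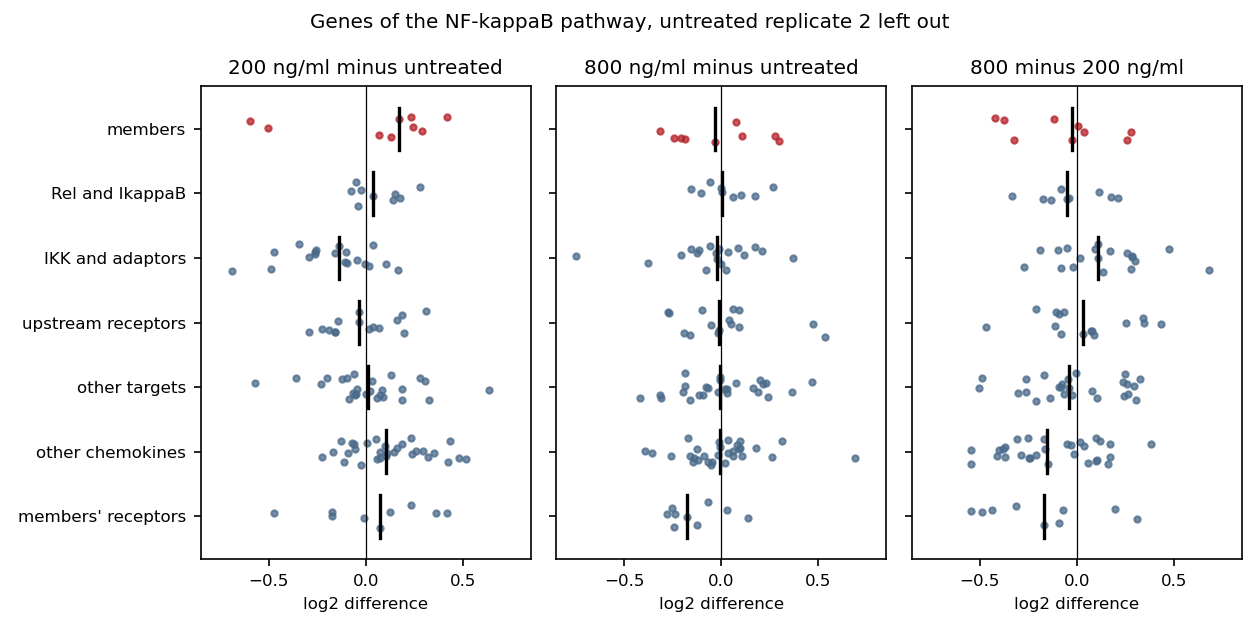
Log2 differences without untreated replicate 2 for every measured gene (points) of the members (red) and of 6 lists of the pathway (blue), with black bars at list medians, in the 3 comparisons. At 200 ng/ml CCL20 and ICAM1 stand at −0.60 and −0.50 while the other 7 members lie above 0.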

How the data were processed

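RNA of HepG2 cells was measured on 1-colour arrays after biotin labelling, per the labels' protocols. The authors deposited 1 value per transcript cluster and array, and R 3.0 is named in the submitters' processing notes. The log2 scale of the deposited values was inferred from their range. How the arrays were normalized, background-corrected or filtered is not given in the sources used here. Without detection calls, whether a gene lay above background is unknown, and precision is limited by the number of arrays. The array medians were 5.41 to 5.55. The group means of CXCL8, CXCL1, CXCL2, CXCL3 and CCL2 lay below them, as did those of NFKBIB, TRAF6, IL18R1, CSF3, XCL1 and CCL1.

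Of 21448 clusters, 17709 carried 1 gene symbol of the platform annotation, 0 carried several and 3739 carried none. RefSeq names of GRCh38.p14, matched by Entrez identifier, changed 0 symbols. The brightest cluster of a gene was kept, which left 17687 genes. A single limma 3.58.1 fit held all 3 groups, run in R 4.3.3 (lmFit and eBayes, Benjamini-Hochberg over all genes, threshold 0.05), with all 9 arrays and without untreated replicate 2. Intervals are 95% intervals of these fits. On simulated data of 17687 genes for 800 ng/ml against untreated, the fit of all 9 arrays recovered 0%, 13.4% and 77.3% of genes changed 1.5-fold, 2-fold and 4-fold, and the fit without untreated replicate 2 recovered 11.9%, 58.2% and 97.0%.

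The 10 members and the pathway and marker lists were chosen with earlier results of these data known, so lists are described by counts and medians. All members were named. Of every other pathway list the 2 genes with the highest mean were named, and the gene with the smallest p in each comparison of the fit without untreated replicate 2. Genes most like CCL20 were the 5 with the smallest root-mean-square difference from it, each gene centred on its own mean over 8 arrays. Alternatives were quantile normalization, median centring, leaving out the dimmest 25% of genes, averaging a gene's clusters, only the 6 arrays compared, a trended robust prior, array weights, a block for the replicate number, and leaving out arrays.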

Additional observations from a re-analysis of the deposited data

How the results depend on the processing

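In the alternatives run, 0 of 9 members passed at 200 ng/ml except with array weights, which called 2 (CCL20 and ICAM1). No member passed in the other comparisons. Array weights called 1971, 732 and 6 genes for 200 ng/ml, 800 ng/ml and the doses, against 0 in each with equal weights. Without 800 ng/ml replicate 1, 12 genes were called against untreated and 15 between the doses, and leaving out each array in turn gave 0 to 12 and 0 to 15. The deviations of same-numbered arrays from their groups correlated at −0.25 to 0.11. Deviations within a group sum to 0, and untreated replicate 2 lay far from the other arrays. These correlations therefore cannot show whether same-numbered arrays were paired. The replicate block called 0 members and 0 genes in each comparison. The median of the members at 200 ng/ml was 0.21 with array weights and untreated replicate 2 left out, 0.21 with the replicate block and that array left out, and −0.017 to 0.31 over leaving out each array. The block and the quantile normalization without untreated replicate 2 were chosen after seeing the data.

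Differences that changed sign were all uncalled. For CCL2 at 200 ng/ml the value became 0.013 with array weights, and without untreated replicate 2 it was 0.39 with weights, 0.42 with 800 ng/ml replicates 2 and 3 also left out, 0.34 after quantile normalization and 0.38 with the block. At 800 ng/ml quantile normalization gave CXCL1 0.14, CXCL3 0.049 and NFKBIA −0.048, and median centring gave ICAM1 0.0048 and CXCL1 0.022. Array weights gave CXCL1 0.57, CXCL2 −0.0072 and NFKBIA −0.10 there. Weights without untreated replicate 2 gave CXCL1 0.093, CXCL2 −0.0010, CCL2 0.35 and NFKBIA −0.16. Leaving out 800 ng/ml replicates 2 and 3 gave CXCL1 0.047, CXCL2 −0.064, CXCL3 0.044 and NFKBIA −0.087, and with untreated replicate 2 out too CXCL1 0.16, CXCL2 −0.22 and NFKBIA −0.46. The lone 800 ng/ml array is then assumed to vary like the other groups. Quantile normalization without untreated replicate 2 gave CXCL1 0.12, CXCL2 −0.024, CCL2 0.30 and NFKBIA −0.19, and the block without it CXCL1 0.19, CCL2 0.26 and NFKBIA −0.22. Between the doses CXCL1 turned to 0.043 after quantile normalization (0.042 without untreated replicate 2), to 0.0029 with weights and to 0.025 with 800 ng/ml replicates 2 and 3 left out. TNFAIP3 turned to −0.041 and −0.055 under the same normalization and omission, and CXCL8 to −0.013 with weights and −0.015 with weights and untreated replicate 2 left out. The cause of these changes was not tested.

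Leaving out each array in turn gave, at 200 ng/ml, CXCL8 −0.20 to 0.24, CXCL1 −0.31 to 0.31 and CCL2 −0.69 to 0.42. At 800 ng/ml it gave CCL20 −0.32 to 0.044, ICAM1 −0.25 to 0.13, CXCL8 −0.17 to 0.28, CXCL1 −0.33 to 0.22, CXCL2 −0.034 to 0.22, CXCL3 −0.19 to 0.042, CCL2 −0.81 to 0.30 and NFKBIA −0.21 to 0.39. Between the doses it gave CXCL8 −0.071 to 0.16, CXCL1 −0.31 to 0.20, CCL2 −0.25 to 0.032 and TNFAIP3 −0.023 to 0.056. CCL20 and ICAM1 kept their direction at 200 ng/ml throughout, at −0.60 to −0.24 and −0.50 to −0.13. The median gene had an interval reaching 1.45-fold either way with all arrays and 1.28-fold against untreated without untreated replicate 2, and smaller differences lay within it.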
